A study of Mus musculus with 6 samples.

Results

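RNA levels of 43 core cell cycle genes were compared, namely the cyclins, cyclin-dependent kinases (CDKs), CDK inhibitors, E2F factors and their closest regulators, by RNA-seq of MPC5 cells. They were taken by name from the 21719 genes of the count table, and all 43 were in it. MPC5 is a conditionally immortalised mouse podocyte line, and its 6 libraries were labelled Setdb2WT (3) or Setdb2KO (3). Every library came from cells treated with high glucose, and no group in normal glucose was analysed here. Setdb2 belongs to the SET-domain family, whose members methylate lysines of histones and other proteins, and Setdb2KO stands for cells in which it was knocked out. The question put to these libraries is how the genotypes differ in RNA, which the series sets in podocyte dysfunction of diabetic kidney disease. The labels say neither how the knockout was made, nor whether it was 1 clone or a pool, nor whether each library stands for its own culture. The p-values therefore measure only the spread between these libraries, which may be technical.

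A cell commits to division when D-type cyclins with CDK4 or CDK6, and then E-type cyclins with CDK2, phosphorylate the pocket proteins (Rb1, Rbl1, Rbl2) and release E2F factors from them. A- and B-type cyclins with CDK1 or CDK2 carry the cell through DNA synthesis into mitosis. INK4 and Cip/Kip proteins inhibit these kinases, and p53 raises the Cip/Kip inhibitor Cdkn1a. Podocytes in the kidney rarely divide, whereas conditionally immortalised lines of this kind divide with the help of a temperature-sensitive SV40 large T antigen, which binds pocket proteins and p53. The culture temperature is not given in the sources used here, and T antigen was not analysed here.

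Libraries held 36461449 to 37129174 counted reads, and each of the 43 genes had between 303 and 24076 reads in every library. Setdb2 itself had 17, 15 and 25 reads in the libraries labelled Setdb2KO and 12, 10 and 9 in those labelled Setdb2WT, and so was no lower under the knockout label (log2 fold change 0.73, SE 0.38, adjusted p = 0.0881 by edgeR's quasi-likelihood test), so groups are called by their labels. Setdb2KO replicate 2 stood apart from the other libraries of its group. Of 9100 genes with a mean of at least 10 CPM (read counts scaled to a common library size), 4.63% were more than 1.2-fold lower in it than in the mean of replicates 1 and 3, against 0.297% to 0.352% for single libraries labelled Setdb2WT. In Setdb2KO replicate 3, 3.21% were higher by as much than in replicates 1 and 2. Of 14 podocyte markers 13 were in the table, and 2 that define the lineage, Wt1 and Lmx1b, had 0 to 2 and 0 to 1 reads per library. The 11 tested podocyte markers summed to 1952 to 1957 CPM under the label Setdb2WT and 1610 to 1683 CPM under Setdb2KO. Of them 6 fell and 4 rose, with Npnt 19.0-fold and Podxl 10.2-fold lower and Cd2ap 1.53-fold higher. Of 7 tested parietal epithelium markers 6 fell and 1 rose, from summed levels of 3209 to 3252 CPM to 1138 to 1213 CPM. Of the 4 tested tubular markers 3 fell and 1 rose, with Aqp1 9.05-fold lower and Cubn 1.68-fold higher. They summed to 1089 to 1104 CPM and 432.7 to 454.8 CPM, and Aqp2 had 0 to 1 reads. All 5 tested mesangial and smooth muscle markers fell (4 under total-count scaling), from sums of 121.1 to 126.4 CPM to 31.2 to 33.6 CPM, with 0 to 5 reads of Itga8. Of the 4 tested endothelial markers Esam (6.47-fold) and Flt1 (1.44-fold) rose and Ehd3 (1.93-fold) and Kdr (1.87-fold) fell. Their sums were 16.1 to 17.7 CPM and 16.2 to 17.8 CPM. Emcn and Cdh5 had 0 to 1 reads, and Pecam1 2 to 3 and then 9 to 18. Of the 2 tested immune markers Cd68 (1.25-fold) rose and Csf1r (1.86-fold) fell, within sums of 13.6 to 15.1 CPM and 9.38 to 11.8 CPM. Among those with few reads, Ptprc went from 4 to 5 reads to 0, and Itgam from 0 to 9 to 13. The part of these markers in the results was not tested. In bulk RNA, fewer cells in a phase of the cycle and less RNA of a gene per cell cannot be told apart.

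Most of the 43 genes differed between the labels, more often downward. By edgeR's quasi-likelihood test 40 changed at an adjusted p under 0.05, which is 93.0% of the 43, against 83.8% of the 13509 genes tested. Of these, 12 rose (27.9%, against 41.5% of all genes) and 28 fell (65.1%, against 42.3% of all genes). At least 2-fold, 3 rose and 9 fell, against 16.4% and 16.2% of all genes. The 3 libraries of each group lay apart without overlap in 41 of the 43, against 84.6% of all genes. Each mention of groups apart below stands beside that share, and each count of genes that rose or fell beside 41.5% and 42.3%. The median log2 fold change was -0.30 over the 43 and 0.0045 over all genes. The median size of the change, without sign, was 0.53 over the 43 and 0.66 over all genes on the same scale. Under total-count scaling the median of the log2 fold changes of all genes lay 0.15 higher, and then 12 of the 43 rose and 23 fell, against 48.5% and 35.8% of all genes; the 5 that no longer passed were Cdk1, Cdkn2c, E2f2, Pkmyt1 and Foxm1. Each fold change below is on the TMM scale, edgeR's scaling for differences in RNA composition, where the median gene is near 0. Adjusted p-values are Benjamini-Hochberg values over all genes tested.

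**Figure D1:**
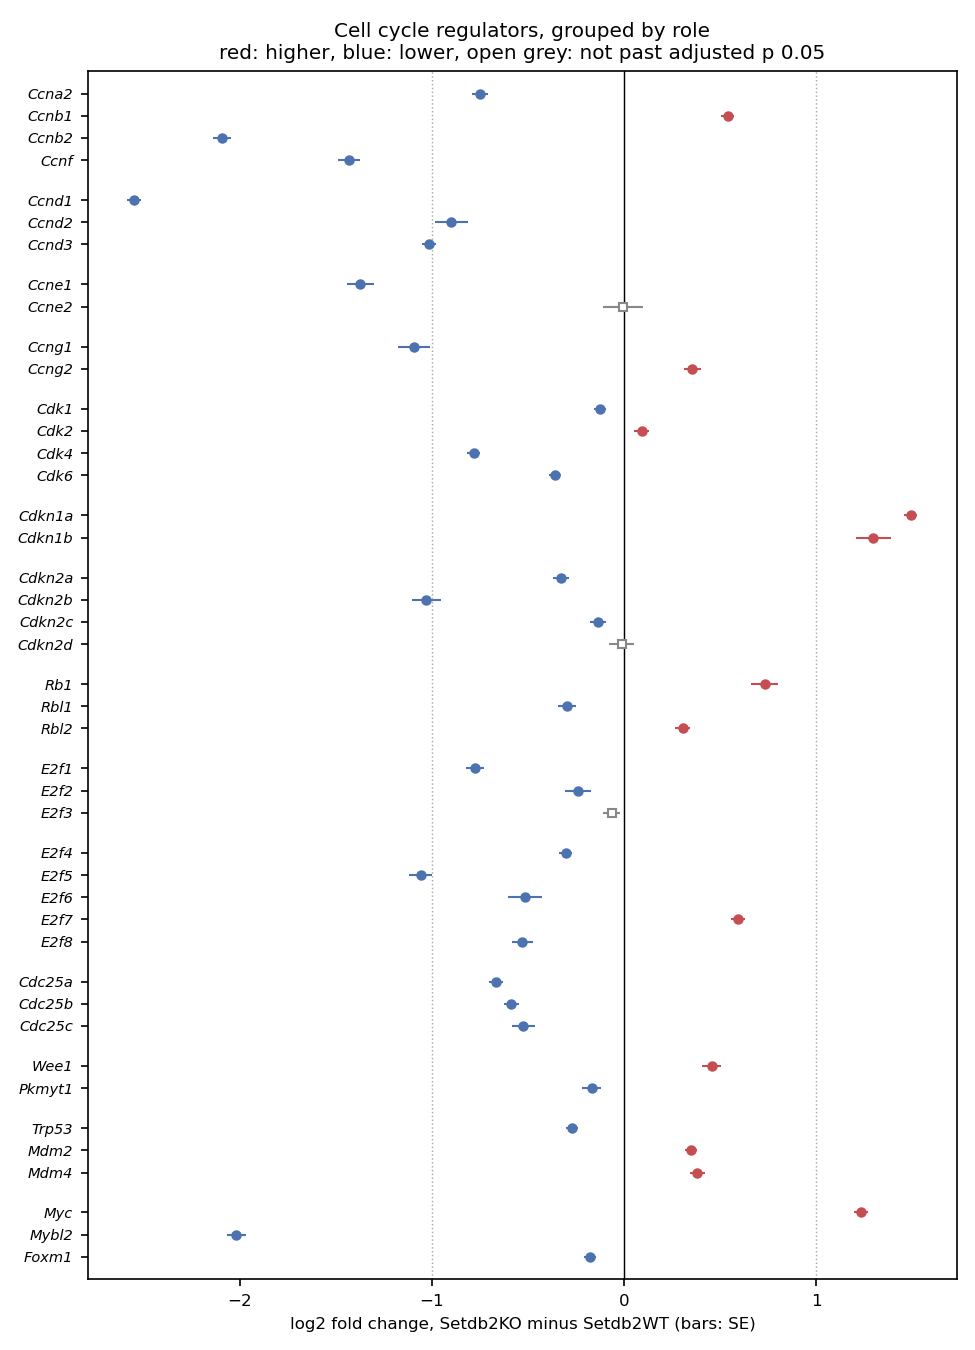
Log2 fold change of each of the 43 genes (x axis, log2 scale, libraries labelled Setdb2KO minus Setdb2WT, bars showing the SE), grouped by role. The D-type cyclins, CDC25 phosphatases, Ccnb2 and Mybl2 lie left of 0, and Cdkn1a, Cdkn1b and Myc lie more than 1 to the right.

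All 3 D-type cyclins were lower in the libraries labelled Setdb2KO. These cyclins carry growth signals to CDK4 and CDK6. Ccnd1 (Entrez 12443) had 577.0, 553.7 and 560.8 CPM in the libraries labelled Setdb2WT and 94.7, 100.4 and 93.6 CPM in those labelled Setdb2KO. It fell 5.86-fold, the largest change among the 43 (log2 fold change -2.55, SE 0.04, adjusted p = 4.7e-16, edgeR). All 3 libraries labelled Setdb2KO lay far below the others. Ccnd3 fell 2.02-fold, from 93.9, 97.5 and 96.9 CPM to 47.8, 48.1 and 46.8 CPM (adjusted p = 5.9e-12). Ccnd2 fell 1.86-fold from a low level, with 14.96, 17.5 and 15.8 CPM against 8.79, 8.21 and 8.84 CPM (adjusted p = 1.8e-07). No library of one label reached the level of the other in either gene. Per kilobase of exonic sequence, Ccnd1 made up 90.4% ± 0.41 of D-type cyclin signal in the libraries labelled Setdb2WT and 76.3% ± 0.63 in those labelled Setdb2KO (SD, n = 3 each). The share of Ccnd3 was 8.28% ± 0.30 and 20.3% ± 0.40 on that scale. Ccnd1 shares 1100 exonic bases with LTO1 on the other strand, which had 389 to 443 and 486 to 491 reads under the 2 labels.

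Their kinase partners were lower too, by less. Cdk4 had 509.1, 498.7 and 508.5 CPM in the libraries labelled Setdb2WT and 291.8, 308.1 and 281.8 CPM in those labelled Setdb2KO, a 1.72-fold fall (log2 fold change -0.78, SE 0.03, adjusted p = 3.6e-11, edgeR). Cdk6 fell 1.28-fold, from 174.5 to 180.6 CPM to 137.0 to 138.8 CPM (adjusted p = 7.7e-08). The groups were apart in both genes. Cdk4 held 66.1% ± 0.12 of the per-kilobase signal of the 4 CDKs under the first label and 54.9% ± 0.90 under the second (SD, n = 3 each), and Cdk6 5.38% ± 0.098 and 6.00% ± 0.21. Cdk4 shares 641 exonic bases with Tspan31 on the other strand, which had 2796 to 3021 and 2802 to 3134 reads.

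Of the Cip/Kip inhibitors Cdkn1a and Cdkn1b rose and Cdkn1c fell, and no INK4 inhibitor rose. Cdkn1a (p21), which binds several cyclin-CDK pairs, had 103.2, 108.6 and 109.7 CPM in the libraries labelled Setdb2WT and 300.5, 307.9 and 297.7 CPM in those labelled Setdb2KO (log2 fold change 1.49, SE 0.03, adjusted p = 3.9e-14, edgeR). Read against Ccnd1 within a library, there were 0.179 to 0.196 Cdkn1a reads for each Ccnd1 read under the first label and 3.07 to 3.18 under the second. Cdkn1b (p27), best known as an inhibitor of CDK2, had 51.1, 55.7 and 55.0 CPM against 133.2, 110.3 and 154.7 CPM. It rose 2.46-fold (log2 fold change 1.299, SE 0.09, adjusted p = 6.3e-09), and replicate 2 lay at 0.766 of the mean of the other libraries labelled Setdb2KO. Every Cdkn1b value under that label stayed above every value under Setdb2WT. Cdkn1c (p57), the remaining family member and not among the 43, went the other way from a low level. Its reads numbered 94, 96 and 98 under the first label and 55, 70 and 45 under the second, a 1.87-fold fall (log2 fold change -0.90, SE 0.20, adjusted p = 7.3e-04).

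INK4 proteins bind CDK4 and CDK6 alone. Cdkn2b (p15) fell 2.04-fold, from 32.2, 38.1 and 36.6 CPM to 16.7, 19.0 and 16.7 CPM (log2 fold change -1.03, SE 0.07, adjusted p = 1.0e-08, edgeR). Cdkn2a, whose single locus gives both p16 and the p53 activator Arf, fell 1.26-fold, from 240.0 to 249.9 CPM to 183.6 to 208.4 CPM (adjusted p = 4.7e-06). The table gives 1 value for the locus, so its products cannot be told apart. Cdkn2c (p18) fell 1.10-fold, from 84.4 to 88.6 CPM to 76.1 to 82.3 CPM (adjusted p = 0.0073), and its log2 fold change turned to 0.018 under total-count scaling. Cdkn2d (p19) did not pass, with 22.6 to 25.3 CPM and 22.5 to 24.98 CPM (log2 fold change -0.012, SE 0.064, adjusted p = 0.865). Cdkn2a had the highest per-kilobase level of all 43 genes under both labels, 210 ± 4.5 and 167 ± 10.6 CPM per kilobase (SD, n = 3 each), and 74.2% ± 0.21 and 74.6% ± 0.47 of the INK4 signal.

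**Figure D2:**
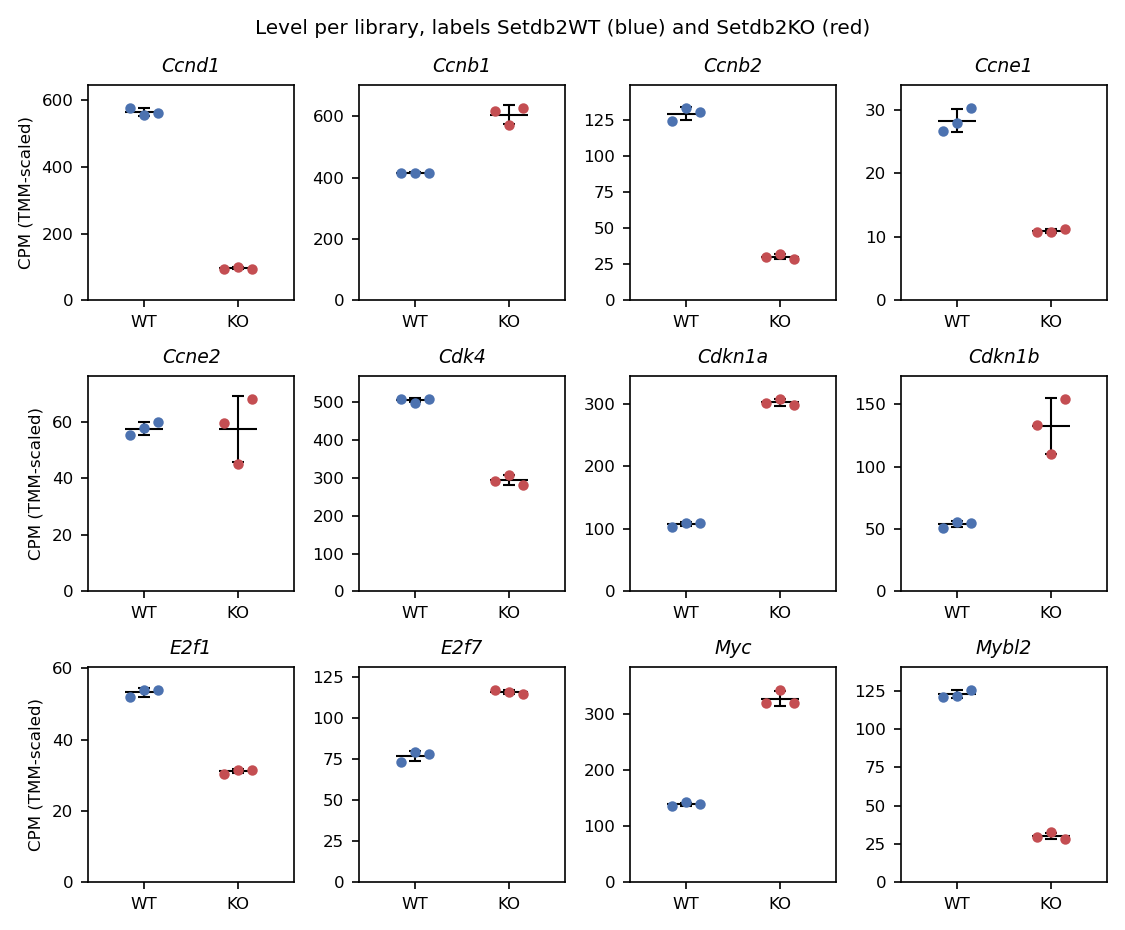
CPM per library (y axis, TMM-scaled, from 0) of 12 genes in the 3 libraries of each label, with the mean and SD as black bars. The 3 red Ccne2 points (44.9 to 68.1 CPM) span the blue ones (55.2 to 59.9 CPM), and the other 11 genes show no overlap. Over all genes tested, 84.6% show no overlap.

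The pocket proteins moved in different directions. Rb1, the retinoblastoma protein, had 30.0, 31.1 and 30.2 CPM in the libraries labelled Setdb2WT and 49.9, 45.3 and 56.7 CPM in those labelled Setdb2KO, a 1.66-fold rise (log2 fold change 0.73, SE 0.07, adjusted p = 2.3e-07, edgeR). Rbl2 (p130), the pocket protein of resting cells, rose 1.24-fold, from 55.3 to 56.8 CPM to 68.1 to 71.3 CPM (adjusted p = 5.3e-06). Rbl1 (p107), itself an E2F target, fell 1.23-fold, from 76.0 to 82.5 CPM to 60.0 to 66.0 CPM (adjusted p = 4.8e-05). The groups did not overlap in any of the 3, as in 84.6% of all genes. Rb1 shares 488 exonic bases with Rcbtb2 and 408 with Lpar6, both on the other strand. Rcbtb2 had 1017 to 1078 reads under the first label and 950 to 1022 under the second. Lpar6 had 590 to 613 and 176 to 217. There were 0.388 ± 0.021 Rb1 reads for each Rbl1 read under the first label and 0.790 ± 0.060 under the second (SD, n = 3 each). Per kilobase Rbl1 was the most abundant of the 3 under both labels, at 51.2% ± 1.1 and 37.8% ± 0.98 of their signal, and Rb1 went from 19.8% ± 0.63 to 29.7% ± 2.0. Without division by length Rbl2 lay above Rbl1 in the libraries labelled Setdb2KO, at a mean of 69.3 against 64 CPM.

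Among the 8 E2F genes 1 rose, 6 fell and 1 did not pass, while 41.5% of all genes rose and 42.3% fell. E2f1, the best known activator of genes for DNA synthesis, had 51.8, 53.8 and 54.0 CPM in the libraries labelled Setdb2WT and 30.5, 31.4 and 31.4 CPM in those labelled Setdb2KO (1.71-fold lower, log2 fold change -0.77, SE 0.05, adjusted p = 1.0e-09, edgeR). E2f2 fell 1.18-fold, from 22.2 to 23.7 CPM to 18.2 to 20.9 CPM (adjusted p = 0.0049), but not under total-count scaling (adjusted p = 0.248). E2f3 did not pass, at 47.5 to 49.7 CPM and 45.1 to 47.0 CPM (log2 fold change -0.063, SE 0.044, adjusted p = 0.201), although its groups did not overlap. These 3 are the activators, and none was called higher in the libraries labelled Setdb2KO, although the E2f3 value turned to 0.092 (adjusted p = 0.0711) under total-count scaling.

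E2f4 and E2f5 work with pocket proteins as repressors. E2f5 fell 2.08-fold, from 30.5, 31.7 and 30.8 CPM to 14.7, 14.2 and 15.7 CPM (adjusted p = 8.2e-10, edgeR). E2f4, which took 45.2% ± 0.77 and 46.9% ± 0.50 of the per-kilobase E2F signal (SD, n = 3 each), fell 1.24-fold, from 142.9 to 146.4 CPM to 114.9 to 118.6 CPM (adjusted p = 7.2e-07). E2f6, a repressor that needs no pocket protein, fell 1.43-fold, from 10.9 to 12.4 CPM to 7.83 to 8.52 CPM (adjusted p = 7.8e-05). The labels did not overlap in any of these 3 repressors, as in 84.6% of all genes. E2f7 and E2f8 are the atypical repressors, which bind DNA without a DP partner, and they moved in opposite directions. E2f7 had 73.3, 79.0 and 77.9 CPM against 117.1, 115.6 and 114.6 CPM, a 1.51-fold rise (log2 fold change 0.59, SE 0.04, adjusted p = 2.4e-09). E2f8 had 68.9, 74.7 and 72.1 CPM against 47.9, 54.3 and 47.2 CPM, a 1.44-fold fall (log2 fold change -0.53, SE 0.05, adjusted p = 5.3e-07). For each E2f8 read there were 1.06 to 1.08 E2f7 reads under the first label and 2.13 to 2.45 under the second.

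**Figure D3:**
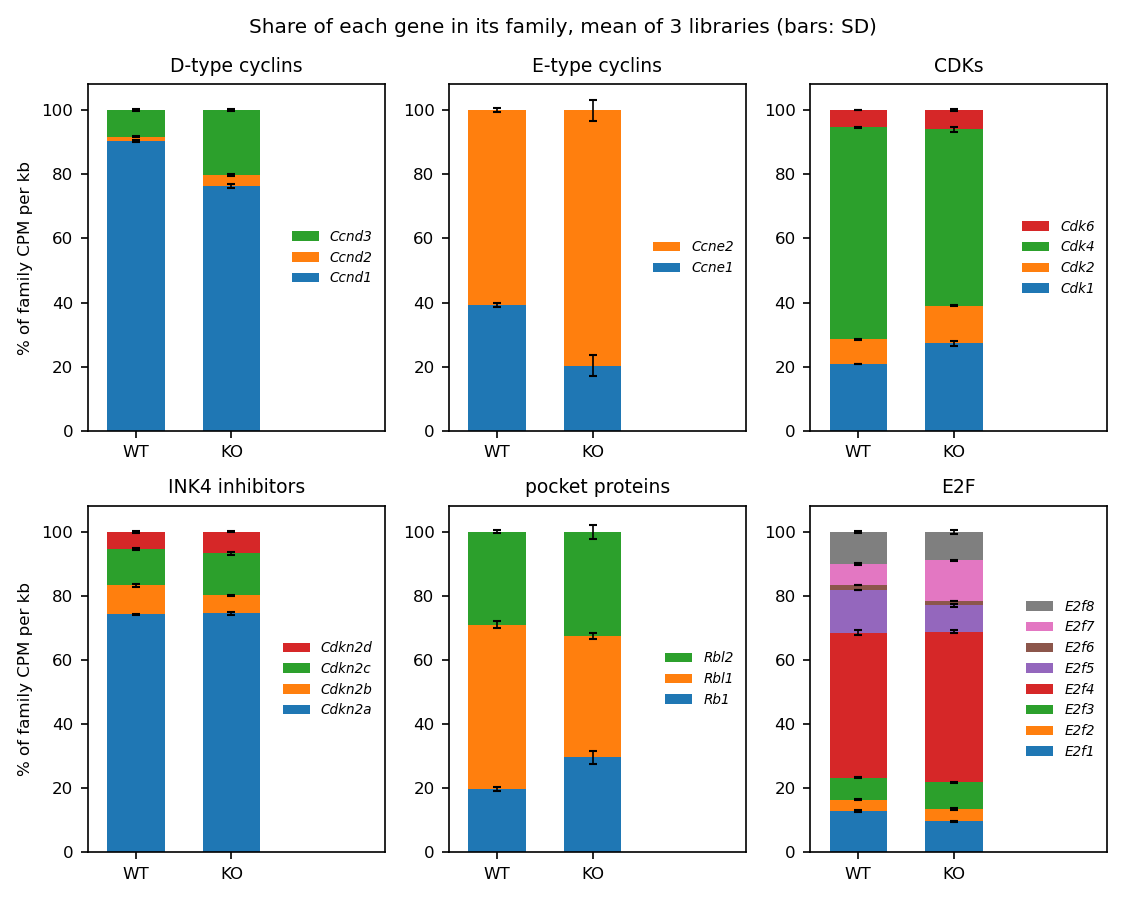
Percent of a family's summed CPM per kilobase (y axis) taken by each gene, as the mean over 3 libraries of each label with the SD as bars. Ccnd1 and Cdk4 take the largest shares of their families under both labels, and the E2f7 share is 6.52% under Setdb2WT and 12.6% under Setdb2KO.

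E-type cyclins and the enzymes that set CDK2 and CDK1 activity came next. Ccne1, which opens S phase with CDK2, fell 2.59-fold, from 26.6, 27.9 and 30.3 CPM to 10.7, 10.8 and 11.3 CPM (log2 fold change -1.37, SE 0.07, adjusted p = 1.9e-10, edgeR). Ccne2, its close relative, had 55.2, 57.6 and 59.9 CPM against 59.3, 44.9 and 68.1 CPM. It did not pass (log2 fold change -0.0033, SE 0.10, adjusted p = 0.978), and the libraries labelled Setdb2KO spanned the others. Without Setdb2KO replicate 2, which lay at 0.704 of the mean of the other libraries of its label, Ccne2 was called higher (log2 fold change 0.15, adjusted p = 0.0105). Cdk2 was near level, at 109.7 to 114.0 CPM and 115.4 to 124.2 CPM, with a log2 fold change of 0.092 (SE 0.037, adjusted p = 0.0335). That call was lost when any library but Setdb2KO replicate 3 was left out, with adjusted p of 0.0688 to 0.190, and without a filter on low counts (0.0906). Ccne2 shares 609 exonic bases with Ints8 on the other strand, which had 2031 to 2293 reads under the first label and 1281 to 1455 under the second.

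All 3 CDC25 phosphatases, which remove inhibitory phosphates from CDKs, fell. Cdc25a, which acts at G1/S, had 90.7, 90.7 and 89.0 CPM in the libraries labelled Setdb2WT and 56.6, 57.2 and 56.6 CPM in those labelled Setdb2KO (1.59-fold lower, log2 fold change -0.67, SE 0.04, adjusted p = 3.6e-10, edgeR). Cdc25b and Cdc25c, which act at entry into mitosis, fell 1.501-fold and 1.44-fold (adjusted p = 6.0e-09 and 1.7e-06). Cdc25b took the largest share of the CDC25 per-kilobase signal under both labels, 55.7% ± 0.42 and 56.2% ± 0.67 (SD, n = 3 each). Wee1, a kinase that puts such a phosphate on CDK1, rose 1.37-fold, from 49.4, 49.0 and 45.7 CPM to 62.6, 65.6 and 69.6 CPM (adjusted p = 9.2e-07). Pkmyt1, a related membrane-bound kinase, had 52.2 to 58.2 CPM and 48.0 to 50 CPM, a 1.124-fold fall (adjusted p = 0.0048) that did not pass under total-count scaling (adjusted p = 0.788). No library of one label overlapped the other in these 5 genes, as in 84.6% of all genes.

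The cyclins of S phase and mitosis did not move as a block. Ccnb1 and Ccnb2 both pair with CDK1 in mitosis. Ccnb1 (Entrez 268697) had 415.2, 416.1 and 416.3 CPM in the libraries labelled Setdb2WT and 615.6, 570.8 and 627.5 CPM in those labelled Setdb2KO, a 1.45-fold rise (log2 fold change 0.54, SE 0.04, adjusted p = 2.8e-09, edgeR). Ccnb2 (Entrez 12442) had 124.2, 133.3 and 130.1 CPM against 29.7, 32.3 and 28.9 CPM, a 4.27-fold fall (log2 fold change -2.09, SE 0.05, adjusted p = 3.9e-14). Each library labelled Setdb2WT held 3.12 to 3.34 Ccnb1 reads for each Ccnb2 read, and each labelled Setdb2KO held 17.7 to 21.7. The exact permutation test of this within-library ratio gave p = 0.1 (two-sided), the smallest that 3 libraries against 3 allow. Ccnb1 has 5 annotated pseudogenes at 95% identity or more over at least 200 bases, so its level is uncertain. The closest, Ccnb1-ps, had 141 to 197 and 243 to 258 reads, against 14482 to 14671 and 22098 to 24076 for Ccnb1.

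Ccna2, the cyclin of S phase and G2, fell 1.68-fold, from 508.9, 512.7 and 509.9 CPM to 305.4, 282.5 and 324.0 CPM (log2 fold change -0.75, SE 0.04, adjusted p = 4.7e-10, edgeR). Ccnf, the F-box subunit of a ubiquitin ligase and no CDK activator, fell 2.70-fold, from 89.5, 82.6 and 82.2 CPM to 32.3, 33.2 and 28.5 CPM (adjusted p = 1.4e-11). Cdk1, the kinase of mitotic entry, moved little by comparison. It had 245.3, 237.9 and 244.0 CPM against 219.0, 223.7 and 223.9 CPM, a 1.09-fold fall (log2 fold change -0.13, SE 0.03, adjusted p = 0.0014) that turned to 0.029 under total-count scaling.

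The transcription factors of this phase differed in size of change. Mybl2 (B-Myb), which joins the MuvB complex to switch on late cell cycle genes, fell 4.05-fold, from 121.0, 121.3 and 125.6 CPM to 29.6, 32.7 and 28.6 CPM (log2 fold change -2.02, SE 0.05, adjusted p = 7.0e-14, edgeR). Foxm1, which follows it on the same promoters, had 183.6, 183.8 and 185.7 CPM against 165.1, 166.6 and 157.5 CPM, a 1.13-fold fall (log2 fold change -0.18, SE 0.03, adjusted p = 1.8e-04). Both genes had all 3 libraries labelled Setdb2KO below the others, but the Foxm1 call was lost under total-count scaling (adjusted p = 0.528). There were 1.504 ± 0.022 Foxm1 reads for each Mybl2 read under the first label and 5.40 ± 0.26 under the second (SD, n = 3 each). Mybl2 shares 742 bases at 99.7% identity with an annotated pseudogene. Foxm1 shares 144 exonic bases with Tex52, a gene picked out after its values were seen, which had 1 to 2 reads per library under the first label and 333 to 396 under the second.

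Promoters of 6 of these genes are shown because they pair members that moved apart (Ccnb1 with Ccnb2, E2f7 with E2f8) or changed by very different amounts (Cdk1, Mybl2). Each is the 250 bases before the annotated start, 5′ to 3′, from RefSeq in build GRCm38.p6, which is not the build the authors counted on. Capitals mark 3 sets of letters on either strand, the cell cycle homology region (CHR) read by MuvB complexes (TTTGAA), the CCAAT box read by NF-Y (CCAAT), and a core shared by many E2F sites (written TTCCCGC, or with the spelling TTGGCGC, with the spelling TTCGCGC or with the spelling TTGCCGC).
Ccnb1 (chr13:100786487-100786736, minus strand): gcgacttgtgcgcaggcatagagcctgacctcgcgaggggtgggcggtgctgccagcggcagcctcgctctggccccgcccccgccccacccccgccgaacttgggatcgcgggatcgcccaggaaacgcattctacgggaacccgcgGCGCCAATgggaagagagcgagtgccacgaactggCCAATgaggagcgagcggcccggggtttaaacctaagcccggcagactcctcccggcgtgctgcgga
Ccnb2 (chr9:70421555-70421804, minus strand): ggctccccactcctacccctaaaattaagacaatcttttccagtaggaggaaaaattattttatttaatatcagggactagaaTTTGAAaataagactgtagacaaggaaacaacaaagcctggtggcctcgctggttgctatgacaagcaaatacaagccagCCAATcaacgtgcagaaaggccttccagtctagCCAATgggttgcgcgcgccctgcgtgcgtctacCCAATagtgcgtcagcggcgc
Cdk1 (chr10:69352913-69353162, minus strand): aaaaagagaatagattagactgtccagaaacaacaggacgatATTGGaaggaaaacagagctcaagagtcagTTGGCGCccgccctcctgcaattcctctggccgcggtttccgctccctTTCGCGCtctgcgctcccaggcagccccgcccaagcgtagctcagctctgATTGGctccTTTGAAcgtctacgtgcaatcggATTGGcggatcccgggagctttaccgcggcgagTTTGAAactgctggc
E2f7 (chr10:110745189-110745438, plus strand): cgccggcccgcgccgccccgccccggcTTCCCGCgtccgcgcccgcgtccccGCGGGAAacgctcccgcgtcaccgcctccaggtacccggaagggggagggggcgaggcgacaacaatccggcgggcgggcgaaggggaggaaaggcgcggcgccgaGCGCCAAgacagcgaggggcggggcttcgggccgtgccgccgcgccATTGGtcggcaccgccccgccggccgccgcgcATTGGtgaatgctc
E2f8 (chr7:48881597-48881846, minus strand): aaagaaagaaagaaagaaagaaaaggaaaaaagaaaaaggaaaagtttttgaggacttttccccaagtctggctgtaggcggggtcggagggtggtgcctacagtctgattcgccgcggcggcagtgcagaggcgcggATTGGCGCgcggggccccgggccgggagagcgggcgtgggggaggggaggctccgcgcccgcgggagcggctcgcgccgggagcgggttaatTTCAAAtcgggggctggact
Mybl2 (chr2:163054385-163054634, plus strand): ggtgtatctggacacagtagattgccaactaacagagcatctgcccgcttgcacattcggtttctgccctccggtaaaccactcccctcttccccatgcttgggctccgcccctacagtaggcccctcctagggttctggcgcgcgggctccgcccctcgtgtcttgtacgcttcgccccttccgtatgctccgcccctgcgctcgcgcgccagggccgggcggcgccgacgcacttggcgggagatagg
The Ccnb2 window held 3 CCAAT boxes and a CHR match that starts 167 bases before the gene's start, and the Ccnb1 window held 2 CCAAT boxes, 1 of which overlapped an E2F core. Both B-type cyclins thus had CCAAT letters, while their RNA moved in opposite directions. The Cdk1 window held 2 CHR matches, 3 CCAAT boxes and 2 E2F cores. In the E2f7 window 3 E2F cores and 2 CCAAT boxes were found, and in the E2f8 window 1 CHR match and 1 E2F core that overlapped the 1 CCAAT box. The Mybl2 window held none of these letters, which says only that these spellings are not in this stretch. Other spellings of E2F sites were not searched, so the window may still hold one. Near its end it reads ttggcgg, which differs from the searched TTGGCGC only in the last letter. Whether an E2F factor binds there was not tested.

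Windows were found for 31 of the 43 genes, 38 windows in all. CHR letters were in 8 of these 38 (21.1%) and in 15.99% of all 32851 windows of the table. CCAAT was in 18 (47.4%) and in 33.8% of all windows, and the E2F core in 10 (26.3%) and in 7.89% of all windows. By direction, the E2F core was in 3 of 9 genes that rose and in 6 of 20 that fell, CCAAT in 5 of the 9 and 10 of the 20, and CHR letters in 1 of the 9 and 6 of the 20. A match describes the letters and does not show that a factor was bound.

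The p53 group went 2 up and 1 down. Trp53 had 284.3, 282.7 and 280.6 CPM in the libraries labelled Setdb2WT and 232.6, 243.3 and 227.0 CPM in those labelled Setdb2KO, a 1.21-fold fall (log2 fold change -0.27, SE 0.03, adjusted p = 2.6e-06, edgeR). Mdm2, the ubiquitin ligase that degrades p53 and is itself a p53 target, rose 1.27-fold, from 117.8 to 121.0 CPM to 151.6 to 152.6 CPM (adjusted p = 1.1e-07). Mdm4, its partner in restraining p53, rose 1.303-fold, from 100.3 to 103.2 CPM to 126.9 to 138.7 CPM (adjusted p = 4.0e-07). The groups lay apart in each. Ccng1, another p53 target, went against Cdkn1a and Mdm2 and fell 2.13-fold, from 232.1, 229.6 and 226.8 CPM to 109.4, 88.7 and 124.5 CPM (log2 fold change -1.09, SE 0.08, adjusted p = 1.6e-08). Ccng2, a related cyclin raised in resting cells, rose 1.28-fold, from 63.9 to 66.2 CPM to 80.4 to 88.3 CPM (adjusted p = 2.7e-06). For each Ccng1 read there were 0.282 to 0.285 Ccng2 reads under the first label and 0.709 to 0.907 under the second.

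Beyond these genes, 31 p53 targets were tested, of which 16 rose and 13 fell, and 2 missed the threshold. Over all genes 41.5% rose and 42.3% fell, the shares beside which the counts of this and the following lists stand. Under total-count scaling 48.5% rose and 35.8% fell, with a median log2 fold change of 0.16 over all genes. Counts and medians given for that scaling stand beside these values. All these lists were chosen with earlier results of these data known. The median log2 fold change of the p53 targets was 0.21, and total-count scaling gave 17 higher, 9 lower and a median of 0.37. Sesn2 and Gadd45a, stress genes that other factors raise too, rose 5.53-fold and 4.19-fold, and the receptor tyrosine kinase Epha2 2.64-fold (adjusted p = 2.7e-15, 6.1e-14 and 1.9e-14, edgeR). Among the 13 that fell, Sesn1, a relative of Sesn2, was 3.47-fold and Trp53i11 3.51-fold lower (adjusted p = 7.2e-12 and 1.3e-10, edgeR). Of 18 tested checkpoint kinases and p53 modifiers 10 rose and 6 fell (11 and 5 under total-count scaling). The acetyltransferases Ep300 and Crebbp rose 2.10-fold and 2.37-fold, and Hipk2, a kinase of p53, fell 2.24-fold.

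Myc rose, and the listed genes known as its targets fell. Myc (Entrez 17869) had 136.5, 142.4 and 138.8 CPM in the libraries labelled Setdb2WT and 319.2, 343.4 and 319.5 CPM in those labelled Setdb2KO, a 2.35-fold rise (log2 fold change 1.23, SE 0.04, adjusted p = 5.6e-13, edgeR). All 20 MYC targets listed, mainly genes of ribosome assembly and of polyamine and nucleotide synthesis, fell. Their median log2 fold change was -1.01, and that over all genes 0.0045. At least 2-fold changes numbered 11 of the 20. This list was chosen with earlier results of these data known, so its counts are a description and not a test. Cad, which starts pyrimidine synthesis, fell 4.53-fold, from 442 to 97.6 CPM. Odc1, which starts polyamine synthesis, fell 3.18-fold, and Srm, the next enzyme of that pathway, 3.42-fold. Under total-count scaling 19 of the 20 fell and 0 rose, with a median of -0.86. Other factors act on these genes as well, and binding of Myc was not measured.

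MYC works as a pair with Max, and Mxd and Mga proteins compete for the same partner. Of 11 tested genes on the list of partners 7 rose and 2 fell (8 and 2 under total-count scaling). The median of the 11 was 0.33 on the log2 scale. The list also counts Mycn, a relative of Myc, which fell 2.87-fold from 3.28 to 1.14 CPM (adjusted p = 5.0e-06, edgeR). Mga and Mxd4 rose 2.88-fold and 2.36-fold (adjusted p = 2.7e-14 and 5.6e-12, edgeR). Mxd3, which is made in S phase, fell 10.5-fold from 14.4 to 1.38 CPM (adjusted p = 4.6e-11).

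**Figure D4:**
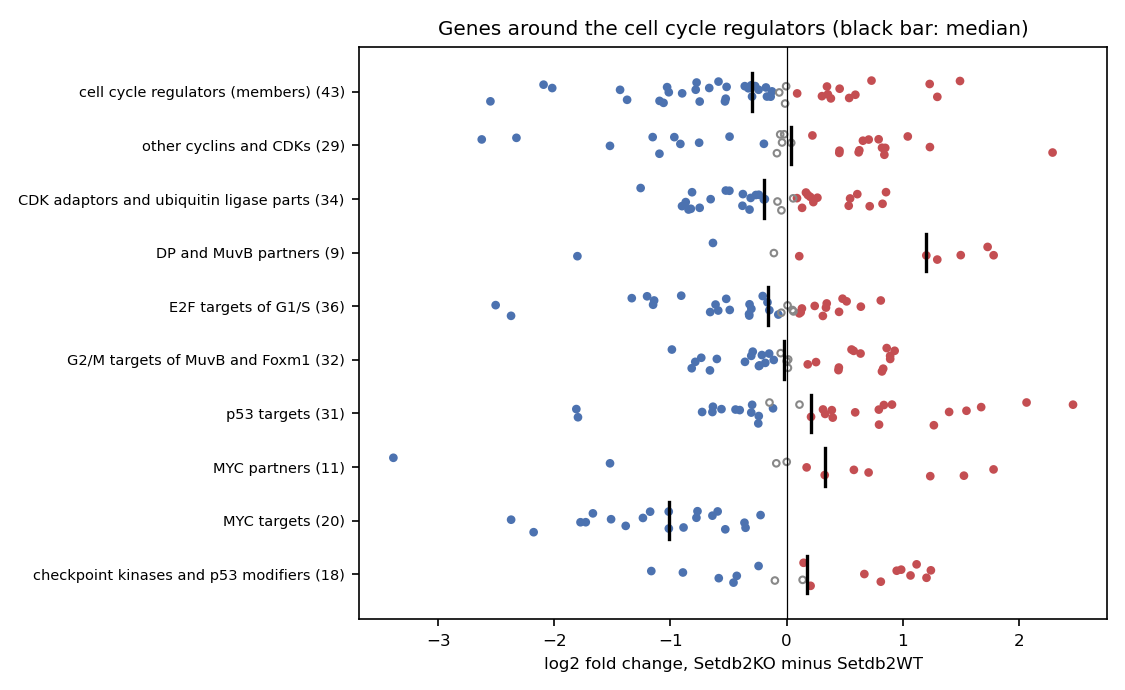
Log2 fold change (x axis) of each tested gene of the 43 and of 9 lists around them, red where higher and blue where lower in the libraries labelled Setdb2KO by edgeR's test, open where not past the threshold, with black bars at the medians. All 20 MYC targets lie left of 0, and the MuvB list has its median at 1.204. The lists were chosen with earlier results of these data known.

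Genes downstream of E2F and MuvB were mixed. Of 36 E2F targets of G1/S 20 fell and 12 rose (median log2 fold change -0.16), and under total-count scaling 16 moved each way. Tk1 and Rrm2, which supply nucleotides, fell 5.18-fold and 5.68-fold, and Uhrf1 2.30-fold (adjusted p = 6.0e-16, 1.1e-15 and 3.9e-13, edgeR). Of 32 G2/M targets 15 fell and 13 rose (median -0.024). Total-count scaling turned that median to 0.13 and the counts to 10 lower and 17 higher. Over all genes that scaling gave a median of 0.16, with 35.8% lower and 48.5% higher. None of the 32 changed 2-fold or more. Kif23, a kinesin of cell separation, fell 1.98-fold, Bub1, a spindle checkpoint kinase, rose 1.78-fold, and the proliferation marker Mki67 fell 1.72-fold, from 488 to 283 CPM.

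The DP partners of E2F factors were split, and most MuvB genes were higher. Of 9 DP, MuvB and Myb genes 6 rose and 2 fell (the same counts under total-count scaling), and the median log2 fold change was 1.204. Lin54, the MuvB subunit that reads CHR elements, rose 3.32-fold from 75.3 to 250 CPM (adjusted p = 3.6e-12, edgeR), and Lin52, which links the complex to its partners, rose 3.44-fold from 8.88 to 30.6 CPM. Tfdp2, a DP partner of E2F factors, rose 2.46-fold, from 34.2 to 84.1 CPM. Tfdp1, the more abundant DP partner, fell 1.55-fold, from 382 to 246 CPM (adjusted p = 1.7e-10). The relatives of Mybl2 were split. Myb fell 3.49-fold from 2.45 to 0.700 CPM, and the more abundant Mybl1 rose 2.83-fold from 15.7 to 44.4 CPM. Tfdp1, Myb, Mybl1, Mycn, Cdkn1c, Sesn1, Trp53i11, Itgam, Pecam1 and the cell type markers given with a fold change were picked out after their values were seen. Of 29 other cyclins and CDKs 14 rose and 10 fell (17 and 9 under total-count scaling), and Cdk18 fell 5.02-fold while Ccnt1 and Ccnl2, cyclins of transcription and splicing, rose 2.35-fold and 1.73-fold. Among 34 CDK adaptors and ubiquitin ligase parts 18 fell and 13 rose, and 1 changed at least 2-fold (15 higher and 16 lower under total-count scaling). Anapc5 and Anapc4, subunits of the ligase that destroys mitotic cyclins, fell 1.76-fold and 1.80-fold, and its subunit Anapc11 rose 1.81-fold.

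Setdb2KO replicate 2 was more than 1.2-fold below the mean of the other libraries of its label in 3 of the 43 genes, Ccne2, Ccng1 and Cdkn1b. The ratio was 0.704, 0.758 and 0.766 in them, and in Rb1 it was 0.849. Of the 9100 genes with a mean of at least 10 CPM, 4.63% were as far below in replicate 2. In Setdb2KO replicate 3 the same 3 genes lay more than 1.2-fold above the mean of replicates 1 and 2, as did 3.21% of the 9100. Without replicate 2 Ccng1 and Cdkn1b kept their calls, with log2 fold changes of -0.97 and 1.42. They also kept them without replicate 3, with -1.21 and 1.18.

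**Figure D5:**
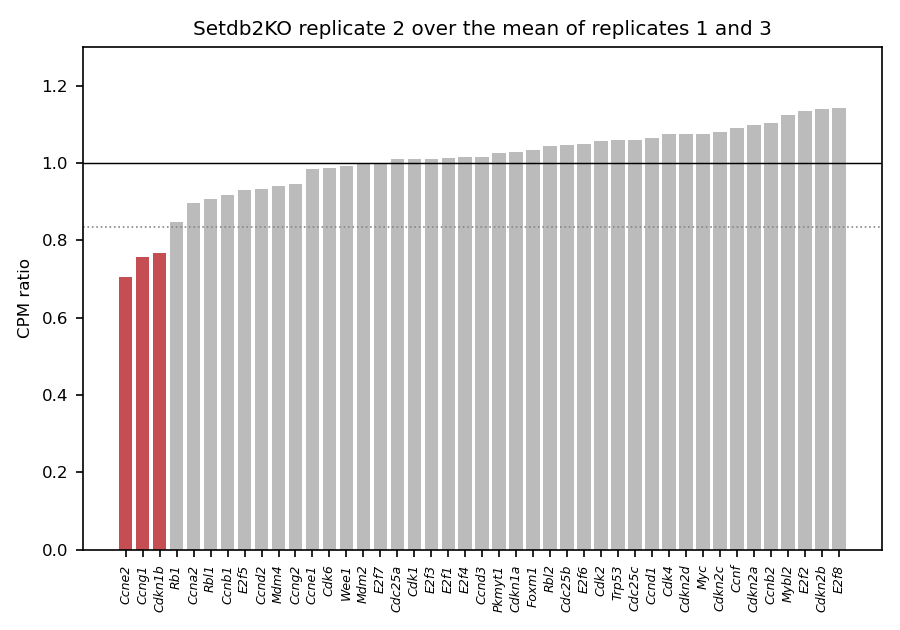
CPM of Setdb2KO replicate 2 divided by the mean of replicates 1 and 3 (y axis, from 0) for each of the 43 genes, with a dotted line at 1.2-fold lower. The 3 red bars, Ccne2, Ccng1 and Cdkn1b, lie below that line, and the highest bar, E2f8, is at 1.14.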

How the data were processed

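RNA of 6 MPC5 samples kept in high glucose was prepared with TRIzol and a VAHTS Universal V6 library kit, per the labels' protocols. The authors deposited raw read counts per gene, 1 column per library. The submitters' processing notes name fastp, HISAT, HTSeq and GRCm39; versions, annotation and the strand rule of counting were not stated. Without that rule, overlapping genes cannot be told apart: 19 of the 43 genes share exonic bases with another gene, and 5 have a near-identical copy (blastn 2.17.0, at least 95% identity over 200 bases, GENCODE M21 on GRCm38). Columns were matched by genotype and number, and 0 stayed unmatched.

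Genes kept by filterByExpr (minimum count 10) were fitted on genotype with TMM factors and tested by edgeR 4.0.16 (quasi-likelihood, R 4.3.3), and p-values were adjusted by Benjamini-Hochberg across the 13509 genes, with a threshold of 0.05. CPM values are TMM-scaled, SE is that of the log2 fold change, and levels per kilobase use the union of GENCODE M21 exons, which rare isoforms lengthen. Scripts were tested on simulated data. Pairs of libraries within a label differed by more than sampling noise (chi-square per degree of freedom 2.51 to 14.8). All 43 genes are named, and up to 3 genes of each list around them with the smallest adjusted p and a mean CPM of at least 1. The members and lists were chosen with earlier results of these data known, and the read ratios after their values were seen; 13 ratios were computed, each with an exact permutation p of 0.1, also after Benjamini-Hochberg adjustment. Alternatives were 3 other scalings (DESeq2's, upper-quartile, total counts), no filter, a CPM filter, DESeq2 1.42.0, limma-voom (limma 3.58.1), a replicate block and each library left out.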

Additional observations from a re-analysis of the deposited data

How the results depend on the processing

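Of the 43 genes, 11 to 12 rose and 23 to 28 fell under the alternatives run, and 8 to 12 changed at least 2-fold; both low values, 23 and 8, came from total-count scaling. With single libraries left out, 11 to 12 rose, 28 fell and 11 to 12 changed 2-fold, while over all genes 5435 to 5670 rose and 5585 to 5826 fell. Over all genes the balance of 5607 higher and 5711 lower turned to 6550 higher and 4833 lower under total-count scaling. Ccne2 (log2 fold change -0.0033) turned to 0.018 with DESeq2 size factors, 0.016 with upper-quartile factors, 0.15 with total-count scaling, 0.021 with the CPM filter and 0.018 by the DESeq2 Wald test. It ranged from -0.14 to 0.15 with single libraries left out, positive without Setdb2WT replicate 3 (0.012) and without Setdb2KO replicate 2 (0.15, adjusted p = 0.0105, edgeR). Cdkn2d (-0.012) turned to 0.0086, 0.0065, 0.14, 0.0097 and 0.0086 under the same 5 settings in that order, and ranged from -0.070 to 0.031 with single libraries left out, positive without Setdb2WT replicate 3 (0.010) and without Setdb2KO replicate 1 (0.031). Total-count scaling, which moves every gene upward, turned Cdk1 to 0.029, Cdkn2c to 0.018 and E2f3 to 0.092. The cause of the other turns was not tested. Cdk2, E2f2, Pkmyt1 and Foxm1 kept their direction and lost their call under the settings given beside them, and the remaining genes of the 43 kept both under all alternatives run.

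Over all genes tested, the replicate numbers showed no pairing: the deviations of same-numbered libraries correlated at 7e-04, -0.030 and -0.012. Differently numbered libraries gave -0.022 to 0.034. Pairing in a part of the genes was not tested. With a replicate block 12 of the 43 genes rose, 28 fell and 12 changed 2-fold, and over all genes 5529 rose and 5661 fell. With 3 libraries a label, the exact test of a single ratio cannot go below 0.1.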
